A study of Mus musculus with 12 samples.

Results

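The 8 genes described here open, tune or shut off the release of calcium from the endoplasmic reticulum of Purkinje cells. They are the inositol trisphosphate (IP3) receptors Itpr1, Itpr2 and Itpr3, the ryanodine receptors Ryr1, Ryr2 and Ryr3, and Car8 and Inpp5a, which act on the IP3 arm. They were chosen by gene symbol, with earlier results of these data known, and all 8 were found among the 43346 annotated genes of the deposited tables. Total RNA longer than 200 bases, with spike-in RNA added, was sequenced by Smart-seq from 13 excised Purkinje cells of 1 male mouse aged 14 months, a Castaneus and C57Bl6 hybrid of strain B6CASTF1/J. The cells were homogenised together and the lysate was split into 12 libraries of 1 cell-equivalent each, numbered 1 to 6 and 8 to 13 in the labels. The labels name neither a treatment nor a control, so all 12 libraries form 1 group and levels were compared only between genes and between libraries. Every p-value measures the technical spread among splits of this single pool, and none bears on variation between mice or between cells.

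Purkinje cells are the inhibitory output neurons of the cerebellar cortex, and their dendrites and spines hold an extensive endoplasmic reticulum. Gq-type G proteins activate phospholipase C at the cell surface, and the IP3 it makes opens the IP3 receptor so that stored calcium enters the cytosol. Ryanodine receptors are the other large calcium channels of the same membrane and are opened by cytosolic calcium. Car8 is a carbonic anhydrase-related protein without the enzyme activity that binds Itpr1 and lowers its affinity for IP3, Inpp5a is the 5-phosphatase that ends the signal by removing a phosphate from IP3, and loss of Itpr1 or of Car8 causes ataxia.

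The IP3 and ryanodine receptors are related tetrameric channels, and the coding stretch around their glycine-rich selectivity filter shows how close the 6 genes are where calcium passes. The 60 bases of each are given 5′ to 3′ from the GENCODE M21 transcripts on mm10 (GRCm38), with the 6 codons of the filter in capitals. The Itpr1 stretch lies at chr6:108518767-108518826 on the plus strand, that of Itpr2 at chr6:146158890-146158949 on the minus strand and that of Itpr3 at chr17:27118610-27118669 on the plus strand. The Ryr1 stretch lies at chr7:29005577-29005636, that of Ryr2 at chr13:11560606-11560665 and that of Ryr3 at chr2:112636610-112636669, all on the minus strand. All 6 stretches lie within 1 coding exon.
Itpr1 pore: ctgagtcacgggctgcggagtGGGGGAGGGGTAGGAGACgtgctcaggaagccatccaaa
Itpr2 pore: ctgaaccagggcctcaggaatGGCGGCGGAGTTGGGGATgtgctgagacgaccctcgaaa
Itpr3 pore: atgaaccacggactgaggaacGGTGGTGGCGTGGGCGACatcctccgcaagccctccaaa
Ryr1 pore: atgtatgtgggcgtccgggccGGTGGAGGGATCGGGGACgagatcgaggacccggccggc
Ryr2 pore: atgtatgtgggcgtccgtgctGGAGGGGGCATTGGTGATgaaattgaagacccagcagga
Ryr3 pore: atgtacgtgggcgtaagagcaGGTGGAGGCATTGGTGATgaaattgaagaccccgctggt
Within the ryanodine receptors the stretches shared 45 to 50 of 60 bases, and within the IP3 receptors 40 to 43. Between Itpr1 and the ryanodine receptors 24 to 33 of 60 bases were the same. Over whole transcripts, no window of 100 bases of any of the 8 genes occurred in another of them, on either strand, so reads of that length tell the members apart.

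The markers of the labelled cell type were present: 7 of 8 Purkinje markers had at least 1 expected count in every library, and their summed level ran from 16376 to 30378 TPM (transcript share scaled for length, with spike-ins in the total). The exception was Skor2, with counts in 3 libraries. Marker genes of other cell types were also measured, and the cells their RNA came from were not tested. The summed level of 8 Bergmann glia and astrocyte markers ran from 1304 to 3567 TPM, of 8 granule cell markers from 79.2 to 749 TPM, of 8 oligodendrocyte markers from 91.3 to 378 TPM, of 8 interneuron markers (Sst at 0) from 4.72 to 116 TPM and of 8 microglial markers (Fcer1g at 0) from 0 to 446 TPM. The 8 endothelial and mural markers, 2 of them (Acta2 and Cldn5) at 0 throughout, ran from 0 to 290.1 TPM, and 7 red blood cell markers, Slc4a1 at 0 among them, from 362 to 1551 TPM. Of 8 muscle markers 6 were at 0 in every library (Ckm, Myh1, Tnnt3, Des, Cnn1 and Tnni2), and their sum reached 34.6 TPM at most. Libraries held 15167444 to 27806010 expected counts (estimated read numbers), of which 13694551 to 24108916 fell on annotated genes.

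Car8, Itpr1 and Inpp5a were abundant in every library, while the other 5 genes were low, patchy or not detected. At least 1 expected count in every library was found for 5 of the 8 genes, where 8.46% of all annotated genes met that rule. At least 50 counts in every library were found for 3 of the 8, Itpr1, Car8 and Inpp5a, against 3.72% of annotated genes. Since the 8 genes were chosen with earlier results of these data known, these shares are a description and no test. Ordered by mean TPM among the annotated genes, Car8 stood at place 78, Itpr1 at 258 and Inpp5a at 518. By CPM, the plain share of gene counts, which grows with transcript length, the places were 15, 19 and 163.

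**Figure D1:**
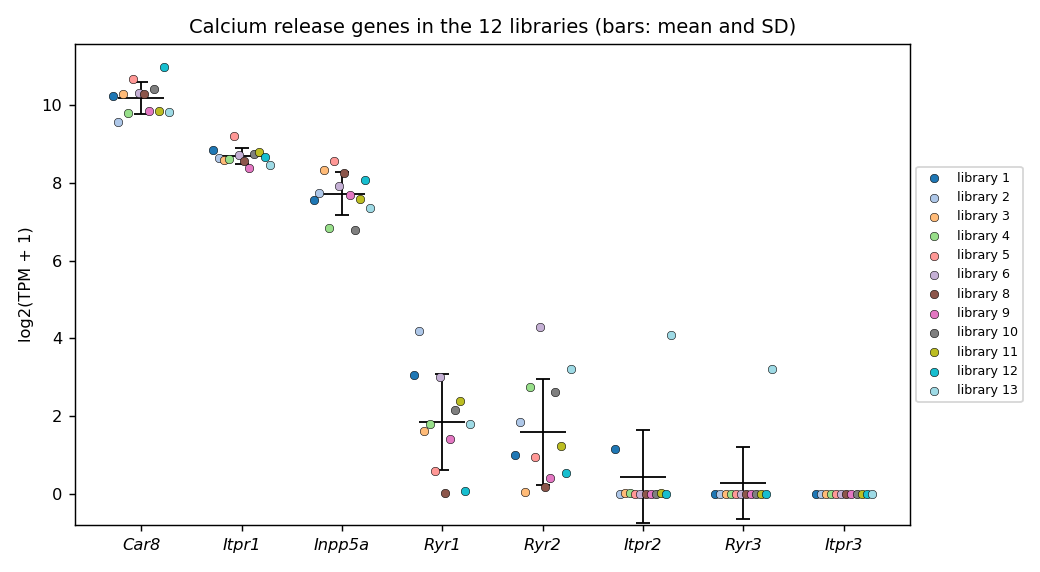
Level of each gene as log2(TPM + 1) on the vertical axis, with 1 coloured point per library and bars for the mean and SD of the 12 libraries. Car8, Itpr1 and Inpp5a lie far above the other 5 genes in all 12 libraries, Ryr1 and Ryr2 spread widely, and Itpr2 and Ryr3 rest on 1 or 2 libraries.

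Itpr1 (ENSMUSG00000030102.8, mm10 chromosome 6, 108213096 to 108551109, plus strand), the main IP3 receptor of Purkinje cells, was the steadiest of the 8 genes. Its level was lowest in library 9 at 333 TPM, had a median of 401 TPM and was highest in library 5 at 588 TPM. The mean was 415.6 ± 64.9 TPM (SD, n = 12), on 56835 to 110719 expected counts per library. The other 10 libraries lay between 353 TPM (library 13) and 459 TPM (library 1), so library 5 stood above all the rest. The coefficient of variation (CV, SD divided by mean) was 0.156 over the 12 libraries and 0.0936 without library 5.

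Itpr1 supplied nearly all IP3 receptor RNA. Its share of the summed TPM of the 3 receptor genes was 99.6 ± 1.25% (SD, n = 12), and the lowest share was 95.7% in library 13. Itpr2 (chromosome 6, 146108299 to 146502223, minus strand), the receptor with the highest affinity for IP3, had 0 counts in 6 libraries, 1 to 4 counts in libraries 3, 4, 6 and 11, 256 counts in library 1 and 398 counts in library 13. In TPM this was 1.24 in library 1 and 16.03 in library 13, and at most 0.02 elsewhere. The mean of 1.44 ± 4.61 TPM (SD, n = 12) fell to 0.116 ± 0.373 TPM over the 11 libraries without library 13.

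Most of the Itpr2 TPM in library 13, though not most of the counts, was assigned to a short transcript and not to the full-length messenger RNA. The transcript ENSMUST00000144557.1, annotated in M21 as a retained intron of 480 bases (Itpr2-207), held 14.74 TPM on 109 estimated counts, and the protein-coding Itpr2-202 held 1.28 TPM on 289 counts. In library 1, by contrast, 256 of the counts lay in Itpr2-202. Library 13 also held the highest summed levels of Bergmann glia and astrocyte markers (3567 TPM), of endothelial and mural markers (290.1 TPM, where the other 11 libraries had 0 to 45.1) and of red blood cell markers (1551 TPM). Library 1 had 1376 TPM of Bergmann glia and astrocyte markers and 0.4 TPM of endothelial and mural markers. Library 13 was also the library with the most annotated genes at 1 count or more, 11581, and at 50 counts or more, 8645. Spike-in counts were lowest in libraries 1, 13 and 4, at 915781, 1019278 and 1049295, and library 4 had 4 Itpr2 counts. Neither the part of glial, vascular and blood cells nor that of these library differences in the Itpr2 counts was tested. Fewer cells of a type and less RNA per cell cannot be told apart in a pooled lysate.

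Itpr3 (chromosome 17, 27057304 to 27122223, plus strand), an IP3 receptor best known from secretory epithelia and taste cells, had no count in any library. The 12 libraries together held 219668370 counts on annotated genes, and 3 counts over all of them correspond to 0.0137 CPM. Per transcript length and against that floor of 3 counts over the group, Itpr1 was at least 2.82e+05-fold higher than Itpr3. This limit covers counting error only, since reads from PCR without molecular identifiers are not independent molecules.

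Car8 (ENSMUSG00000041261.9, chromosome 4, 8143362 to 8239041, minus strand) was the most abundant of the 8 genes. It was lowest in library 2 at 756 TPM, had a median of 1221 TPM and was highest in library 12 at 2033 TPM, with a mean of 1204 ± 365 TPM (SD, n = 12). Library 5 came next to the highest, at 1649 TPM. Car8 exceeded Itpr1 in 12 of 12 libraries, by 1.49 ± 0.37 on the log2(TPM + 1) scale (SD, n = 12), with an adjusted p of 0.000684 over the 28 pairs of the 8 genes (exact two-sided sign-flip permutation test). The ratio of Car8 to Itpr1 was 2.90 ± 0.81 (SD, n = 12) and ran from 1.90 in library 2 to 5.03 in library 12. This difference is one of level per length: in CPM, where the longer Itpr1 transcript gains, it was 0.12 on the log2 scale, with an adjusted p of 0.339 in the same exact permutation test.

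Inpp5a (ENSMUSG00000025477.9, chromosome 7, 139389109 to 139579652, plus strand) was the third of the abundant genes. It was lowest in library 10 at 109 TPM, had a median of 208 TPM and was highest in library 5 at 379 TPM, and its mean was 224.8 ± 82.4 TPM (SD, n = 12). Library 4, at 114 TPM, was close to the lowest. Inpp5a lay below Itpr1 in 12 of 12 libraries, and Itpr1 was higher by 0.96 ± 0.53 on the log2(TPM + 1) scale (SD, n = 12; adjusted p = 0.000684, exact two-sided sign-flip permutation test). The ratio of Inpp5a to Itpr1 was 0.543 ± 0.184 (SD, n = 12) and ran from 0.254 to 0.831.

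The 3 ryanodine receptor genes together were far below Itpr1. Their summed level was 8.48 ± 8.60 TPM (SD, n = 12), from 0.14 TPM in library 8 to 25.8 TPM in library 6. Itpr1 exceeded this sum in each of the 12 libraries, by a factor of 16.3 in library 6, 67.0 in the median and 2713 in library 8. Inpp5a, the lowest of the 3 abundant genes, exceeded Ryr1 by 5.88 ± 1.55 on the log2(TPM + 1) scale in 12 of 12 libraries (SD, n = 12; adjusted p = 0.000684, exact two-sided sign-flip permutation test).

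Ryr1 (ENSMUSG00000030592.12, chromosome 7, 29003344 to 29125179, minus strand), the release channel of skeletal muscle that is also expressed in Purkinje cells, had a count in every library but at very unequal levels. It stood at 17.3 TPM in library 2, 7.38 in library 1, 7.05 in library 6, 4.26 in library 11, 3.50 in library 10 and between 1.68 and 2.49 in libraries 3, 4, 9 and 13. It was at 0.51 TPM in library 5, 0.06 in library 12 and 0.01 in library 8, where it had 5 counts. The mean was 4.06 ± 4.81 TPM (SD, n = 12), so the SD was larger than the mean. The muscle marker sum was highest in library 11, all of it from Acta1 (34.6 TPM), and that library was the fourth highest for Ryr1. Library 2, with the most Ryr1, had a muscle marker sum of 0.03 TPM. The part of muscle cells in the Ryr1 counts was not tested.

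Ryr2 (ENSMUSG00000021313.11, chromosome 13, 11553102 to 12106945, minus strand), the release channel of heart muscle and the form most widespread in brain, was as uneven as Ryr1. Its level was 18.7 TPM in library 6, 8.25 in library 13, 5.73 in library 4, 5.20 in library 10 and 2.62 in library 2. The other 7 libraries had 1.34 TPM or less, down to 0.03 TPM in library 3. The mean was 3.73 ± 5.41 TPM (SD, n = 12), and 2.37 ± 2.78 TPM without library 6 (SD, n = 11). Ryr1 was higher than Ryr2 in 5 libraries and lower in 7, and their difference of 0.26 ± 1.31 on the log2(TPM + 1) scale (SD, n = 12) did not pass (adjusted p = 0.522, exact two-sided sign-flip permutation test). Both reached 1 TPM in 7 libraries, neither did in 3 (libraries 5, 8 and 12), and Ryr1 alone did in libraries 3 and 9. The share of Ryr1 in ryanodine receptor TPM was 49.8 ± 34.2% (SD, n = 12) and ranged from 7.14% to 98.6%.

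**Figure D2:**
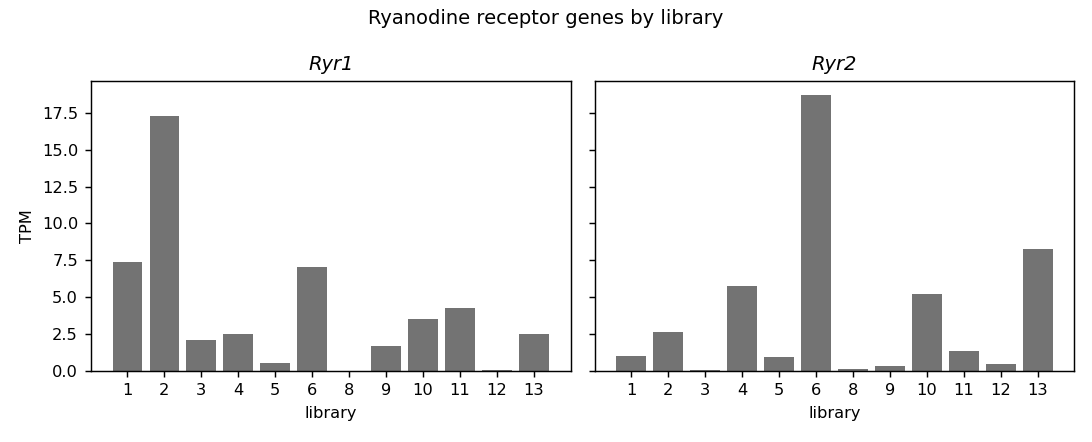
TPM of Ryr1 (left) and Ryr2 (right) in each of the 12 libraries, 1 bar per library. Ryr1 is highest in library 2 at 17.3 TPM and Ryr2 in library 6 at 18.7 TPM, and both are near 0 in libraries 8 and 12.

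Ryr3 (ENSMUSG00000057378.10, chromosome 2, 112631355 to 113217096, minus strand), the third ryanodine receptor, was measured in library 13 alone, at 8.28 TPM on 405.32 expected counts, and was listed at 0 in the other 11 libraries. All of these counts lay in the 2616-base transcript ENSMUST00000137131.3, which M21 no longer lists, and the long protein-coding transcripts had 0. In M21 the exons of Ryr3 share 916 bases with those of Aven, a cell survival gene read from the opposite strand. Aven had 701.68 expected counts in library 13, and the fractions of the 2 genes add up to a whole 1107 counts. Its counts elsewhere reached 102 at most. Whether strand was used in counting is not given, so the Ryr3 level is uncertain. Against Itpr2, 5 libraries gave a difference and against Itpr3 only 1, so no exact sign-flip permutation test could pass (smallest possible p = 0.0625 and 1.00).

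Of the 28 pairs, 24 differed. Pairs of other genes were not tested, so this number has no background to be read against. The order by mean TPM was Car8, Itpr1, Inpp5a, Ryr1, Ryr2, Itpr2, Ryr3, Itpr3. The first 3 steps of that order each held in 12 of 12 libraries. Ryr2 exceeded Itpr2 by 1.15 ± 1.48 on the log2(TPM + 1) scale in 10 of 12 libraries (SD, n = 12; adjusted p = 0.0184, exact two-sided sign-flip permutation test), and this call was lost at a pseudocount of 10 TPM (adjusted p = 0.101, same exact test). The difference of Ryr1 and Ryr2 was within its spread. The other 3 pairs that did not pass, among Itpr2, Ryr3 and Itpr3, could not have passed: with both genes at 0 in most libraries, 5 libraries at most gave a difference, and the smallest p the exact sign-flip permutation test could give was 0.0625.

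The spread of each gene between libraries was next set beside that of other genes. The CV of Itpr1, at 0.156, was below the medians of genes of like level, a description and no test. The median was 0.497 over a wide window of genes nearest in mean TPM. Over a window of the same size nearest in mean count it was 0.432. Since few genes have as many counts as Itpr1, the genes of that window mostly have fewer, and over the 51 nearest in count, a window chosen after the data were seen, the median was 0.276. Among the 49 genes with a mean count of 32768 or more, the tenth percentile of the CV was 0.211. Car8 had a CV of 0.303, beside medians of 0.431 by TPM and 0.274 over the 51 genes nearest in count. Inpp5a had 0.367, beside 0.615 by TPM and 0.399 over the 51 nearest in count. Ryr1, at 1.18, lay close to the median of 1.17 for the wide window by count, and Ryr2 was at 1.45 beside the same 1.17. By TPM their windows had medians of 2.28 and 2.34, well above both genes.

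**Figure D3:**
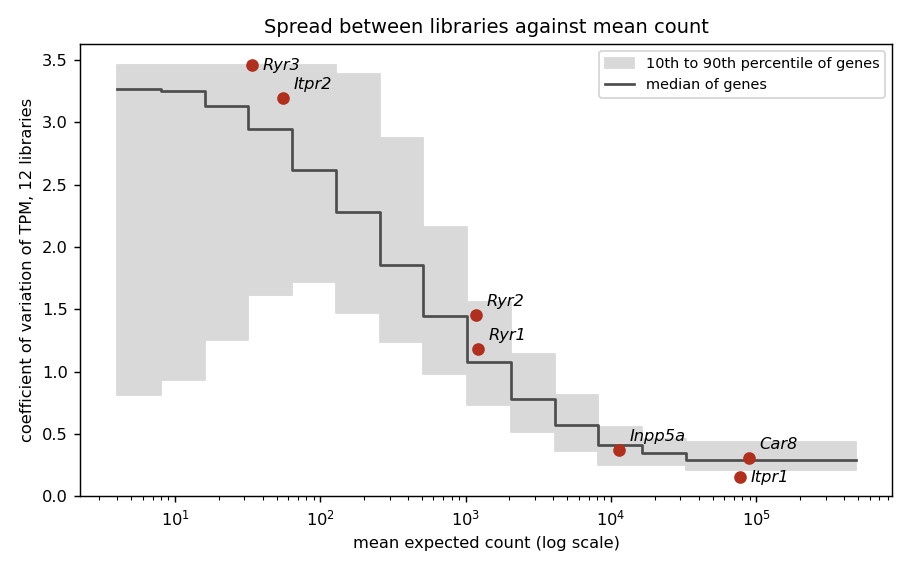
Coefficient of variation of TPM over the 12 libraries (vertical axis) against mean expected count (horizontal axis, log scale). The grey steps span the tenth to the ninetieth percentile of annotated genes in each range of counts and the line is their median; red points are the members, with Itpr1 below the grey band, and the other 6 within it or at its edge.

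No member was called by edgeR's quasi-likelihood test of each gene's spread against the trend over abundance, with Benjamini-Hochberg adjustment over 13899 genes. The test called 0.0144% of genes above the trend and 2.14% below it. Of the 7 members tested, 1 had an unadjusted p under 0.05, Car8, which lay above the trend (F = 6.31, unadjusted p = 0.00657, adjusted p = 0.773); without library 12, its highest, F was 3.69. For Itpr1, F was 1.71 (adjusted p = 0.773 for more and 0.890 for less spread). At the top of the abundance range the fitted trend lay well below the genes measured there: at Itpr1 it was 0.0330, while the median quasi-dispersion of the 51 nearest genes was 0.145 and that of Itpr1 itself 0.0565. With that running median as the trend, an alternative added after the data were seen, F was 0.397 for Itpr1 and 1.27 for Car8, and again no member was called. All 7 members varied beyond Poisson sampling of reads, as did 99.9% of the genes tested.

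The estimated leading transcript of Inpp5a changed from library to library.
The 2 main transcripts, Inpp5a-201 and Inpp5a-203, start within 1 base of each other and differ at exon 15 of 16, which begins at 139578182: it ends at 139578218 in Inpp5a-201 and runs on for 51 bases, to 139578269, in Inpp5a-203. In Inpp5a-201 coding continues in the last exon from 139578354 to 139578427, and in Inpp5a-203 it stops within the added bases, so the proteins have 422 and 412 residues with different ends. The end of each form follows from M21 on mm10, plus strand, from chr7:139578182-139578427 (spliced) for the first and chr7:139578182-139578269 for the second. Lower case marks the shared 37 bases of exon 15. Capitals mark what follows them in each form: the coding part of the last exon in Inpp5a-201, and the 51 added bases in Inpp5a-203. The last exon itself is in both forms, so apart from the first base only reads that touch the added bases, or that cross from the 37 bases straight into the last exon, separate the forms.
Inpp5a-201: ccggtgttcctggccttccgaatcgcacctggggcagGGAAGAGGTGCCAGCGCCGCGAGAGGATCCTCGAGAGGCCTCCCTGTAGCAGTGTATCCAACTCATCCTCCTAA
Inpp5a-203: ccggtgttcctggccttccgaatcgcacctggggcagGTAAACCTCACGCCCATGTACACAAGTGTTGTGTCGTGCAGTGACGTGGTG
Inpp5a-201 held 64.7 ± 34.2% of the gene's TPM and Inpp5a-203 held 34.0 ± 34.7% (SD, n = 12). Inpp5a-203 led in libraries 3, 5 and 9, with 90.2%, 98.9% and 79.2%, and Inpp5a-201 led in the other 9, up to 99.8% in library 12. In library 1 a further 15.5% lay in Inpp5a-204, a processed transcript of 341 bases. The estimated counts behind these shares were, for example, 13757 for Inpp5a-203 against 133 for Inpp5a-201 in library 5, and 42.2 against 18088 in library 12. Most bases are in both forms, so these estimates include shared reads. They are not numbers of reads that tell the forms apart. The mean difference of 30.7 points was within the spread (higher for Inpp5a-201 in 9 of 12 libraries, p = 0.150, exact two-sided sign-flip permutation test), and without library 5 it was 42.4 points with p = 0.0439 in the same exact test. Inpp5a-202, which has its own start at 139400489, had no count in any library. Such swings were common: among 415 genes with a mean of at least 100 TPM, at least 50 counts in every library and a second transcript of at least 5%, the median SD of the leading share was 23.5 points, and 14.7% had an SD as large as that of Inpp5a or larger. Inpp5a also overlaps Nkx6-2, an oligodendrocyte transcription factor gene on the opposite strand, over 246 exon bases, and Nkx6-2 had 0 to 31.7 counts per library beside 4862 to 19805 for Inpp5a.

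Ryr1 reads were likewise assigned to 1 transcript or the other in most libraries. Ryr1-202 has an exon of 15 bases, chr7:29056234-29056248 on the minus strand, that the other Ryr1 transcript, ENSMUST00000032813.9, lacks. The exon is shown in capitals between 30 bases of each neighbouring exon, from M21 on mm10.
Ryr1-202 exon: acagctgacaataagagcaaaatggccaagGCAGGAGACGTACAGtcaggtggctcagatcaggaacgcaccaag
Ryr1-202 held 100% of Ryr1 TPM in libraries 1 and 2, on 2008 and 5861 estimated counts, 75.2% in library 6 and 60.3% in library 10. In the other 8 libraries ENSMUST00000032813.9 held at least 98.1%, on 4.90 to 1032 counts. The 3 libraries with the most Ryr1 (libraries 2, 1 and 6) were thus those in which Ryr1-202 led by the widest margins. The deposited tables use GENCODE M4, where Ryr1-202 is 15362 bases long, while the M21 version is 15358. In M21 the 2 forms differ in more than this exon, since ENSMUST00000032813.9 has 9 bases that Ryr1-202 lacks and is 6 bases shorter. Library 1 also had 744 counts on Gm26604, a gene of the opposite strand that shares 864 exon bases with Ryr1 and had 0 to 3 counts elsewhere. The 2 transcripts of Ryr2 had equal estimated counts in every library and could not be told apart, and Itpr1, Car8 and Itpr3 each have 1 transcript in the deposited tables.

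**Figure D4:**
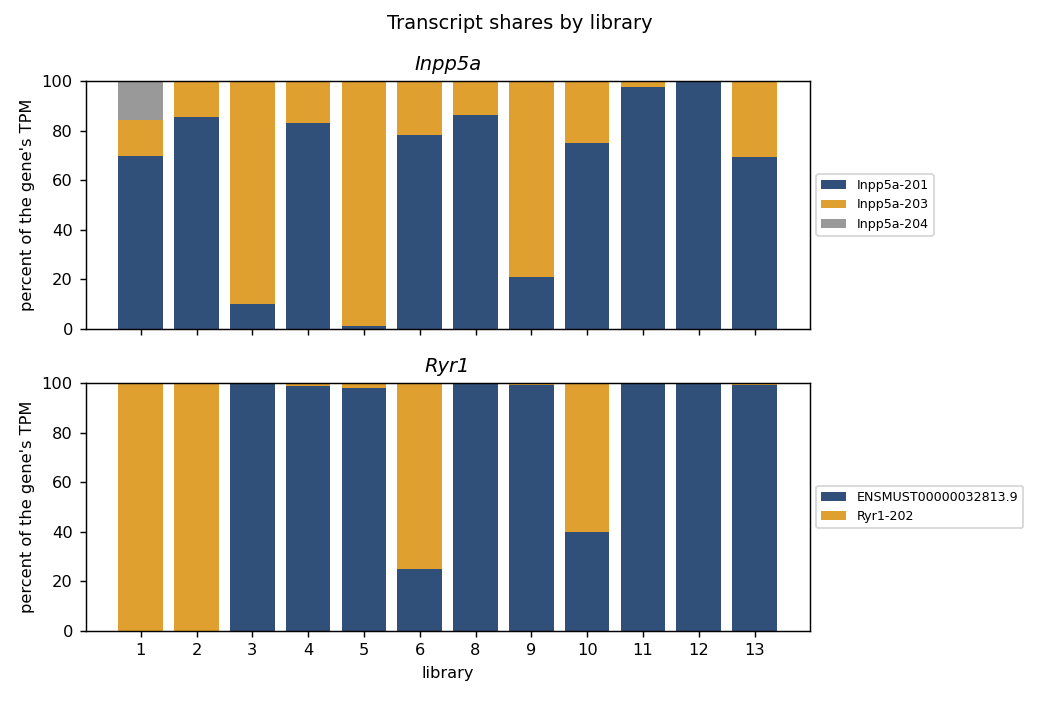
Share of the gene's TPM assigned to each transcript (stacked bars, percent) in each of the 12 libraries, for Inpp5a (top) and Ryr1 (bottom). Inpp5a-203 leads in libraries 3, 5 and 9, and Ryr1-202 leads in libraries 1, 2, 6 and 10.

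The 3 abundant genes did not clearly rise and fall together over the 12 libraries. For Itpr1 and Car8, Pearson's r of log2(TPM + 1) was 0.463 (permutation p = 0.130, adjusted over 3 pairs 0.203) and Spearman's rho 0.399 (permutation p = 0.200, adjusted 0.30). Without libraries 5 and 9, the 2 farthest from the median of Itpr1, r was 0.179. For Car8 and Inpp5a, r was 0.459 (permutation p = 0.135, adjusted 0.203) and rho 0.469 (permutation p = 0.126, adjusted 0.30), and without libraries 2 and 12 r was 0.522. For Itpr1 and Inpp5a, r was 0.287 (permutation p = 0.370, adjusted 0.370) and rho 0.0350 (permutation p = 0.922, adjusted 0.922), and without libraries 5 and 9 r was -0.185. Library 5, highest for Itpr1 and Inpp5a, was the shallowest library, with 15167444 counts. The labels name no batch within which these relations could be recomputed.

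Among 1479 protein-coding genes with a mean of at least 10 TPM and 50 counts in every library, those most like Itpr1 in log2(TPM + 1) over the 12 libraries were Ubr4 (r = 0.735), App (0.714) and Braf (0.705). Most like Car8 were Osbpl6 (r = 0.861), the G protein regulator Rgs8 (0.814) and Hsf2 (0.812). Most like Inpp5a were Polr2i (r = 0.783), Acyp2 (0.776) and Tonsl (0.776). All genes share the same 12 libraries, and these values are the highest of many, given as a description.

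Upstream of phospholipase C, 8 of 14 genes were counted in every library, a rule met by 8.46% of annotated genes. A mean of at least 1 TPM was reached by 11 of the 14, and by 28.1% of annotated genes. Rgs8, a brake on G proteins, stood at 257 ± 63.8 TPM and Homer3, a scaffold protein that binds IP3 receptors, at 219 ± 73.7 TPM (SD, n = 12 for each gene of the lists). The lowest measured, Homer2, stood at 0.0250 ± 0.0835 TPM. Of 14 phospholipase C genes, 2 had a count in every library: Plcb4, the main form of many Purkinje cells, at 320 ± 70.2 TPM, and Plcb1 at 19.7 ± 24.4 TPM. Plcd4 followed at 18.8 ± 30.5 TPM. Plch1 was lowest of those with a count, at 0.214 ± 0.742 TPM, while Plcb2 and Plcg2 had none. Plcb4 was the only 1 of the 14 with at least 50 counts in every library, a rule met by 3.72% of annotated genes.

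Among 17 other enzymes that act on inositol phosphates or lipids, 5 had a count in every library, a rule met by 8.46% of annotated genes. Itpka, the kinase that converts IP3 by adding a phosphate, stood at 118 ± 46.2 TPM, below the mean of Inpp5a, the phosphatase that competes for the same substrate. The lipid phosphatases Inpp4a and Inpp5k stood at 93.9 ± 30.3 and 51.5 ± 67.5 TPM. Itpkc was lowest of those with a count, at 0.515 ± 1.76 TPM, while Impa2 had none. Among 21 proteins that bind or modify IP3 receptors, 8 had a count in every library. Grina led with 265 ± 80.3 TPM. Ahcyl1, which competes with IP3 at the receptor, had 175 ± 74.3 TPM and the mitochondrial channel Vdac1 154 ± 75.4 TPM. The calcium sensor Cabp1 was lowest of those with a count, at 0.0667 ± 0.124 TPM, while Mrvi1, Lrmp, Tespa1 and Ankrd63 had none. None of the 21 reached the level of Car8.

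Of 18 proteins of the ryanodine receptor complex, 6 were counted in every library, a rule met by 8.46% of annotated genes. In no library were 5 counted: Jph2, Trdn, Casq1, Stac2 and Cacna1s, most of them known from muscle. Such absence is common: by mean CPM, genes without any count begin at place 16975 of 43346. The immunophilin Fkbp1a stood at 338 ± 180.1 TPM and the calcium-binding protein Sri at 142 ± 124 TPM. Asph, whose locus also makes the short junctional proteins junctin and junctate, stood at 248 ± 88.2 TPM. These means were all above those of Ryr1 and Ryr2. Hrc was lowest of those with a count, at 0.0558 ± 0.193 TPM. Of 22 genes for refilling and storage, 9 had a count in every library. The pump Atp2a2, which returns calcium to the store, reached 690.0 ± 152 TPM, and the store proteins Canx and Calr 248 ± 97.9 and 174 ± 106 TPM. Pln, an inhibitor of that pump in heart, was lowest of those with a count, at 0.0908 ± 0.315 TPM. Casq2 at 53.2 ± 75.5 TPM and Atp2a3 at 86.5 ± 37.4 TPM, named after their values were seen, were measured in all 12 libraries, whereas Casq1 and Atp2a1, their counterparts in fast muscle, had no count. The median of the mean TPM over a list was 18.4 upstream, 3.12 for phospholipase C, 16.9 for the other enzymes, 9.29 for receptor binding, 3.69 for the ryanodine receptor complex and 23.4 for refilling, beside 0 over all annotated genes and 11.6 over those with a mean of at least 1 TPM.

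**Figure D5:**
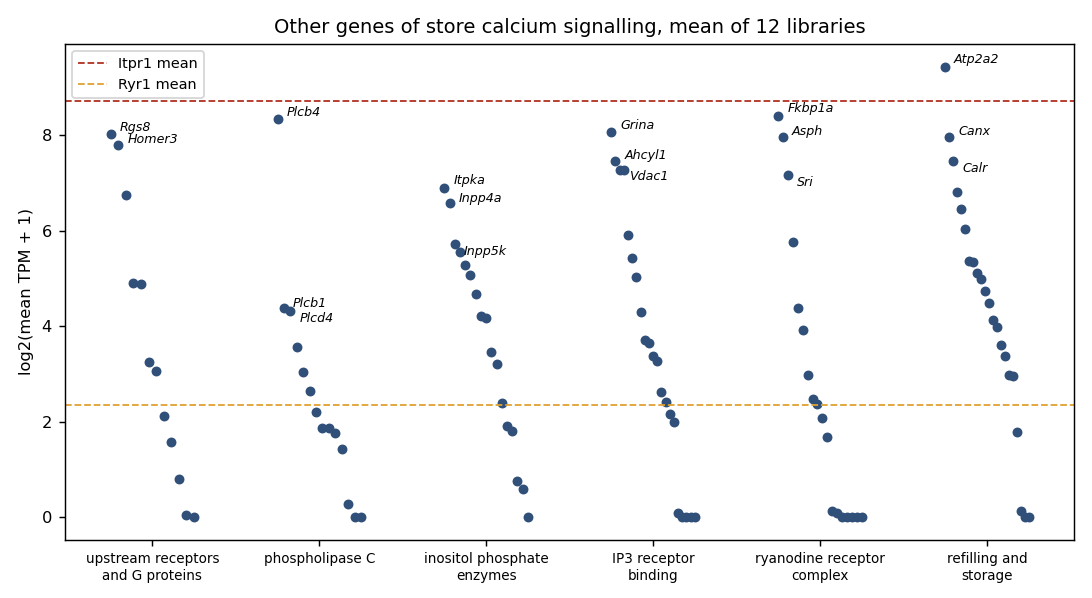
Mean level over the 12 libraries of the genes reported from the 6 lists, as log2(mean TPM + 1), with 1 point per gene, some of the highest of each list named, and dashed lines at the means of Itpr1 and Ryr1. Only Atp2a2, at 690.0 TPM, lies above Itpr1, and each list spans from its leading genes down to genes near 0.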

How the data were processed

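The deposited gene and transcript tables of 12 libraries were used. Per the file headers, they hold expected counts, TPM and, for transcripts, the percent share of each transcript in its gene (IsoPct), with lengths and effective lengths, the latter being 99 bases shorter. Per the text files deposited by the authors, the build was mm10 with GENCODE M4; for the aligner, the quantification program and the strand, the name is not given in the sources used here. The deposited TPM values include spike-ins and 26248 features with numeric identifiers, which were left out here. Symbols and coordinates were taken from release M21, built on that assembly, and 42462 of 43346 gene identifiers matched. The members and gene lists were chosen with earlier results of these data known.

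Pairs were compared on log2(TPM + 1) with exact sign-flip permutation tests over 4096 patterns, whose smallest p is 0.000488 (larger where differences are 0), and Benjamini-Hochberg adjustment at 0.05. Expected counts were rounded for edgeR 4.0.16 (R 4.3.3; TMM, intercept only, quasi-likelihood) and the Poisson chi-square test, on genes averaging 5 counts or more; the script was tested on simulated counts. Correlations used 100000 permutations. Named were the 8 members, the 3 highest genes and the lowest measured gene of each list, and for each abundant member the 3 genes most like it. Some genes that this rule takes are not reported here. The 12 libraries are technical replicates; depth ran from 15167444 to 27806010 counts. Alternative settings are given in the closing section.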

Additional observations from a re-analysis of the deposited data

How the results depend on the processing

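Each step of the order of the 8 genes kept the sign of its mean log2 difference, and 22 to 24 pairs differed, at pseudocounts of 0.1 and 10 TPM, in CPM, with expected counts under 50 set to 0 and without each library in turn, except that Ryr3 and Itpr3 were both at 0 without library 13. By mean TPM itself, Ryr1 fell below Ryr2 without library 1 (3.76 against 3.98 TPM) and without library 2 (2.86 against 3.83 TPM). The 2 calls of neighbours that were lost, Car8 over Itpr1 in CPM and Ryr2 over Itpr2 at a pseudocount of 10 TPM, are given above. Levels depend on what the TPM total holds. Rescaled to annotated genes, Itpr1 was at 503 TPM, and rescaled without mitochondrial genes and Malat1 it was at 574, Car8 at 1662 and Inpp5a at 310.5 TPM. Against the edgeR trend, 2 genes varied more; this was 0 with the running median of 51 genes as the trend and 1 to 2 when 1 library was left out, the 1 being without library 1. Below the trend, 298 genes were called, and 142 in a separate fit that required 50 counts or more on average. Counts thinned to 1 in 100 left 5818 of 5830 genes beyond Poisson sampling, fewer because fewer were tested. Members detected in every library numbered 3 at a count of at least 50 and also 3 at a TPM of at least 1. Leaving out 1 library gave a lead of Inpp5a-201 of 24.5 to 42.4 points, an r of Itpr1 and Inpp5a of -0.158 (without library 5) to 0.402, and a CV of Itpr1 of 0.0936 (without library 5) to 0.164; the causes were not tested. No paired analysis was possible because there is 1 group of libraries.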
